A study of Hordeum vulgare with 18 samples.

Results

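Line 17_10, named KD-CKX1 17_10 in the labels, is a transgenic barley line (Hordeum vulgare, cultivar Golden Promise) with a silenced HvCKX1 gene. Its whole spikes at stage 59 of the BBCH scale were compared with spikes of the CTRL line, an azygous control, at the same stage. The comparison uses the libraries whose titles give that line or that control at stage 59, 6 of the 18 libraries of the series, with 3 libraries in each group. The remaining libraries come from line 17_10 and the control at stage 49, and from a second silenced line, KD-CKX1 5.8 (line 5.8), at both stages, and they serve below for side-by-side values. All plants grew in field plots and received the same fertilizer, herbicide and fungicides, per the labels. An azygous plant lacks the transgene. Each line is given as independent in the series description, so line 17_10 stands for 1 line and not for silencing as such. The labels do not describe the construct, the parent of the azygous plants or the number of plants behind a replicate.

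The product of HvCKX1 is a cytokinin oxidase/dehydrogenase (CKX), which breaks cytokinins down. These are plant hormones that promote cell division, and CKX enzymes lower their level in meristems and developing grains. In cereals, lower CKX activity has been linked to more grains or spikelets per inflorescence. BBCH stage 59 is the end of heading, when the inflorescence has fully emerged, and stage 49 is the point at which the first awns are visible.

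The deposited values are normalized counts, that is, reads per gene divided by 1 size factor per library. Of the 26066 features in the table, 19440 reached 10 normalized counts in at least 3 of the 6 stage 59 libraries and were tested. The identifiers are paired with no gene name (0 of 26066 matched the reference table of barley genes), so HvCKX1 itself could not be read and the labels were not checked against it. At most 2 identifiers that rose and 2 that fell are printed. Other features are given by their rank in size of change, and their functions are not described. No sequence is shown because no file pairs one with these identifiers.

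Each library departed from its group in some features before any contrast was made, and those of line 17_10 did so the most. In line 17_10, replicate 2 was at least 4-fold below the mean of the other libraries of its group in 611 features and at least 4-fold above it in 137. Replicates 1 and 3 of the line were at least 4-fold above that mean in 275 and 337 features and below it in 109 and 84. In the control, replicate 3 was at least 4-fold below the others in 224 features and above them in 45. Control replicates 1 and 2 were below in 61 and 25 features and above in 94 and 64. The mean correlation of log2 values with the rest of the group was 0.962, 0.949 and 0.963 for replicates 1 to 3 of line 17_10, against 0.979, 0.982 and 0.976 in the control. At stage 59 the line was thus less even than the control, and of these 6 libraries its replicate 2 was the least like its own group. The order was the reverse at stage 49, at 0.984, 0.985 and 0.987 in line 17_10 against 0.979, 0.964 and 0.970 in the control. In line 5.8 at stage 59 the values were 0.951, 0.968 and 0.965. Depth, as reads recovered from the table, was 24459652, 78121108 and 37151076 in line 17_10 and 68302420, 41867959 and 56866720 in the control, so that replicate 2 was also the deepest library and replicate 1 the shallowest. Among 16724 features with at least 50 normalized counts in both groups, the median coefficient of variation was 12.6% in line 17_10 and 10.1% in the control.

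**Figure D1:**
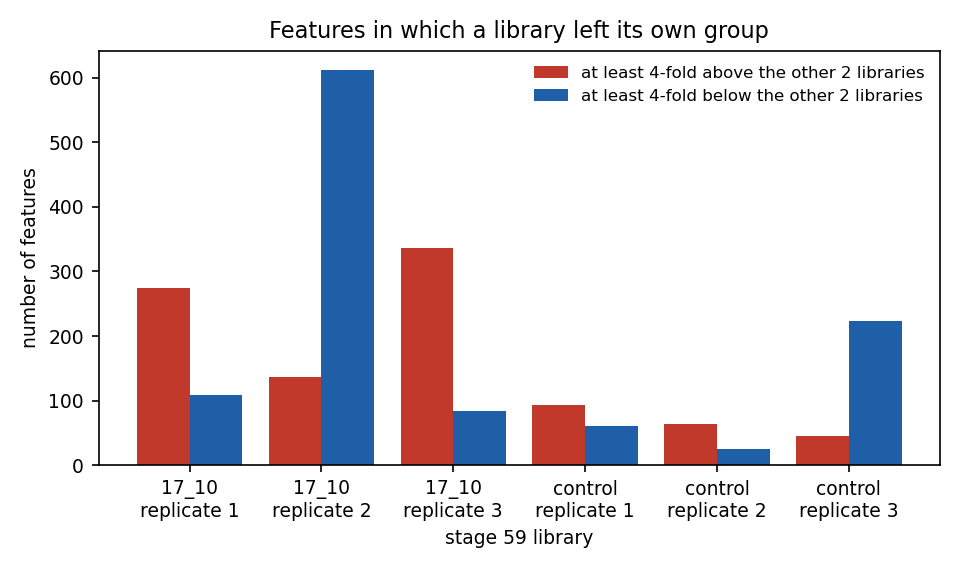
Number of features (y axis) in which each stage 59 library (x axis) lay at least 4-fold above (red) or below (blue) the mean of the other 2 libraries of its group. Replicate 2 of line 17_10 lay below its group in 611 features, the tallest bar, and control replicate 3 in 224.

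The first question was which transcripts differed between line 17_10 and the control at the end of heading. In all, 39 features changed (limma with Benjamini-Hochberg adjustment, adjusted p below 0.05), which is 0.201% of those tested. Of these, 20 were higher in line 17_10 (0.103%) and 19 were lower (0.0977%). The median log2 fold change over all features was -0.01, a centre that the scaling by size factors sets. In whole spikes, fewer cells of a type and less RNA per cell cannot be told apart, and levels are relative to the rest of each library. An unadjusted p below 0.05 was reached by 1117 features, where 972 are expected by chance. This count depends on the estimate of spread shared by all 18 libraries. It was 2045 in a limma fit of the 6 libraries alone, and 298 at stage 49 in the shared fit. The nearness of 1117 to 972 is therefore not read as a lack of differences. The 39 features were drawn from low and middle levels: 9 had a mean over the groups below 50 normalized counts, 21 lay from 50 to 500, 9 from 500 to 5000, and none of the 2522 features above 5000 passed. The threshold lay between a feature with adjusted p = 0.0412 (limma, log2 fold change 1.79) and the next one with adjusted p = 0.0546 (limma, -1.62). In all 39 the libraries of the groups did not overlap, against 1641 features not overlapping on the higher side (8.44%) and 1759 on the lower side (9.05%) among all tested.

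Without control replicate 3 the count was 57, with 17 higher and 40 lower, and 33 of the 39 remained. Without replicate 2 of line 17_10 it was 28, with 12 higher and 16 lower, and 26 of the 39 remained. It was 64 without replicate 1 of line 5.8 at stage 59, a library that enters only through the shared estimate of spread, and 115 by DESeq2 on recovered reads (53 higher, 62 lower).

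**Figure D2:**
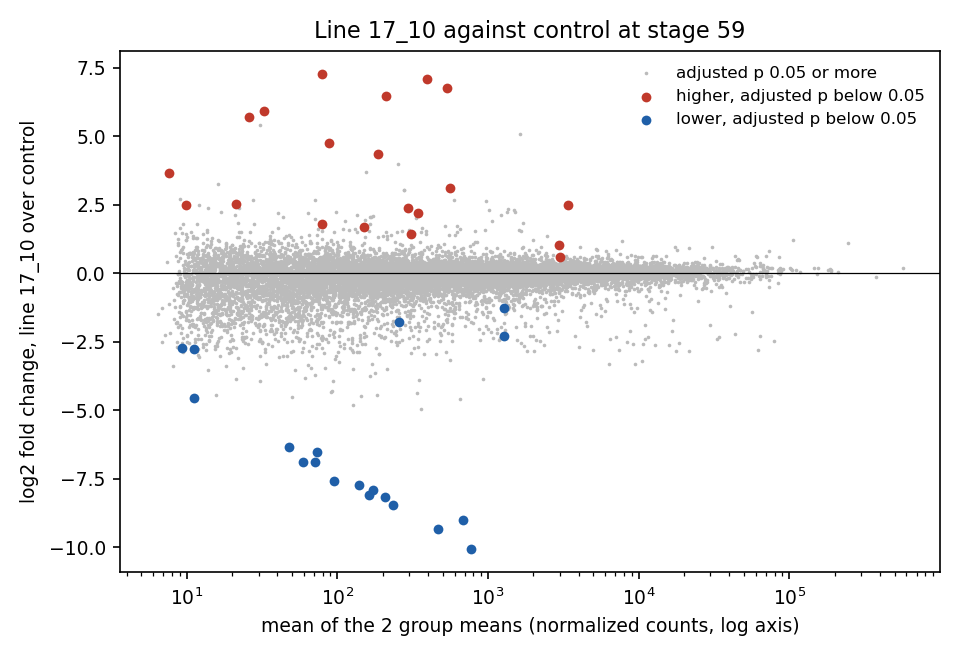
Each point is a feature, placed by the mean of both group means (x axis, normalized counts, log axis) and by its log2 fold change, line 17_10 over control (y axis). The 20 higher features (red) spread over sizes up to 7.26, and most of the 19 lower ones (blue) form a separate band that reaches -10.04.

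Of the 19 lower features, 16 were near silent in line 17_10, with a mean below 10 normalized counts, and 3 had at least 50 in both groups. Of the 20 higher features, 9 were near silent in the control, 3 had a control mean between 10 and 50, and 8 had at least 50 in both groups. The median log2 fold change was -6.88 among the lower features and 2.82 among the higher ones, against -0.01 over all features tested. With the features at 0 reads in one group set to a floor of 3 reads per library, the medians were -6.51 and 2.82. A change of at least 16-fold was found in 14 lower and 8 higher features. The filter on low values was passed through the control alone by 16 of the lower features and through line 17_10 alone by 8 of the higher features. A feature at 0 in one group could pass only in this way, and all 6 tested features with 0 reads in one of the groups were among the 39.

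The largest fall was MLOC_312. It had 0, 2.05 and 0 normalized counts in replicates 1 to 3 of line 17_10, against 1537, 1466 and 1595 in the control. The line 17_10 value rests on 3 reads, all in its deepest library, while the control libraries were close together. The mean was 0.685 ± 1.19 in line 17_10 and 1532 ± 64.9 in the control (SD, n = 3 each; a log2 change of -10.04 with SE 0.34 by limma, adjusted p = 2.64e-10). As a ratio of means the control was 2238 times line 17_10, with a 95% exact Poisson interval from 766 to 10850 for the counting error of the 3 reads. In line 5.8 at the same stage MLOC_312 stood at 1750, 1492 and 1497, and line 17_10 was lower than line 5.8 too (a log2 change of -10.09 with SE 0.34 by limma, adjusted p = 2.49e-10). At stage 49 the line 17_10 libraries had 1, 1 and 2 reads, against 2326, 2217 and 2389 normalized counts in the control. The transcript was therefore all but undetected in all 6 libraries of line 17_10 and high in all 12 others.

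MLOC_312 was the extreme of a larger set. The 14 largest falls had means below 10 in line 17_10 and of at least 10 in the control at both stages. Their means ran from 0 to 2.34 normalized counts in line 17_10 at stage 59 (median 0.457), against 22.3 to 1532 in the control (median 301). In 13 of the 14 the stage 59 libraries of line 17_10 held at most 3 reads together. Of the 10 lower features with 1 to 3 reads in the line, 9 had all of them in replicate 2. At stage 49, 10 of the 14 had 0 reads in every line 17_10 library, and no feature of the set had more than 4 reads over that group. The control means at stage 49 ran from 15.7 to 2311.

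Line 5.8 did not share this loss. The 14 features had means from 31.7 to 2147 normalized counts in line 5.8 at stage 59, with a median of 350, and 14 of 14 were within 2-fold of the control mean on the log2(value + 1) scale. All 14 were lower in line 17_10 than in line 5.8 (limma, adjusted p below 0.05), a comparison that uses the same line 17_10 libraries and called 0.273% of features in all and 0.175% as lower. The calls against the control stood in each of 18 fits that left out 1 library. They also stood in 14 of 14 by DESeq2, in 14 of 14 in a fit of the 6 compared libraries alone, and in 13 of 14 by edgeR. The 14 were picked among called features for means near 0 in line 17_10 and higher ones in the control. These fits therefore largely repeat that choice and are no separate support for the set. The 20 higher features were also called in these data, but without that further choice of means. Of these 20, 10 stood in all 18 of those fits, 15 by edgeR, 20 by DESeq2 and 8 in the 6 libraries alone. Of the 20 rises, 7 had means below 10 in the control and of at least 10 in line 17_10 at both stages. Picked like the 14 falls, these 7 all stood in the 18 fits, so they are 7 of the 10 above, and all passed at stage 49. Of the 11 features with at least 50 normalized counts in both groups, 1 stood in all 18 fits and 2 in the 6 libraries alone. In the control, 13 of the 14 had a higher mean at stage 59 than at stage 49, with log2 differences between the stages from -0.59 to 1.15 over the set.

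Within the set, the second largest fall had 0, 2.05 and 0 normalized counts in line 17_10 against 974.5, 883 and 953 in the control. The third had 2.23, 4.79 and 0 in line 17_10, against 1605, 1355 and 1116 in the control. The ninth had 0 reads in every line 17_10 library, against 169, 198 and 204 in the control, at least 43.7-fold lower with a floor of 3 reads per library. The smallest of the 14 had 0 reads in line 17_10 against 22.3, 23.9 and 20.8 in the control, and there the floor allowed only at least 5.13-fold. The size of change in this band therefore followed the control level, since the line stood near 0 throughout. Floors and counting intervals cover counting error only and leave out variation between replicates. Copies made by PCR were not collapsed, so the counting error itself may be understated.

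**Figure D3:**
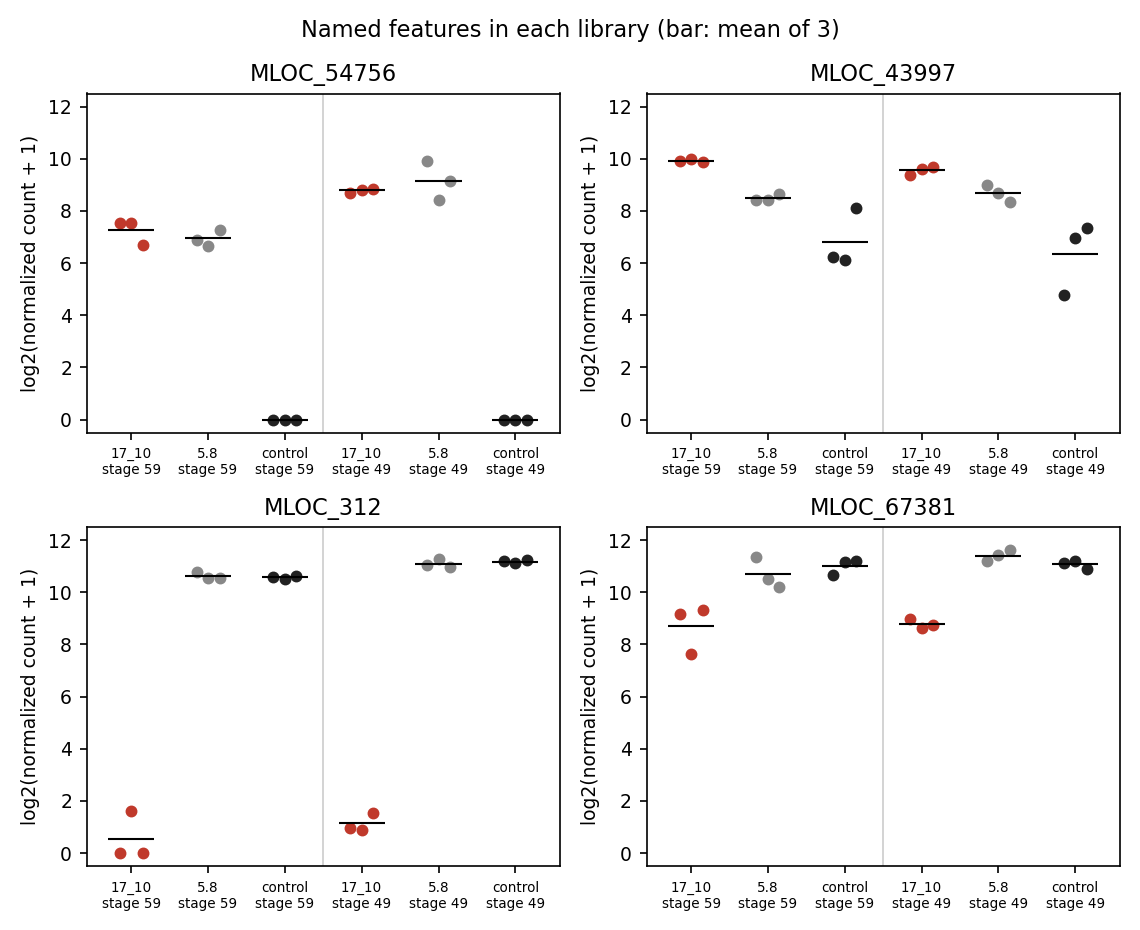
Values of the 4 named features in every library of the 6 groups, as log2(normalized count + 1), with points for replicates 1 to 3 and a bar at their mean. MLOC_312 is near 0 in line 17_10 at both stages and above 10 elsewhere, whereas MLOC_54756 is present in both silenced lines and at 0 in the control.

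The 5 other lower features were of another kind. MLOC_67381 was the largest fall among features with at least 50 normalized counts in both groups. It had 579, 197 and 631 in replicates 1 to 3 of line 17_10, against 1618, 2276 and 2319 in the control. Every line 17_10 library was below every control library, and replicate 2 was the lowest. The mean was 469 ± 237 in line 17_10 and 2071 ± 393 in the control (SD, n = 3 each; a log2 change of -2.29 with SE 0.36 by limma, adjusted p = 0.0117). At stage 49 MLOC_67381 had 498, 400 and 426 in line 17_10, against 2248, 2332 and 1908 in the control (a log2 change of -2.29 with SE 0.36 by limma, adjusted p = 0.0118). In line 5.8 at stage 59 it had 2634, 1437 and 1175, above line 17_10 (line 17_10 over line 5.8, a log2 change of -1.98 with SE 0.36 by limma, adjusted p = 0.0298). The call against the control was lost without control replicate 2 (limma adjusted p = 0.079) and in a fit of the 6 libraries alone (limma adjusted p = 0.238).

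Another graded fall had 862, 556 and 882 normalized counts in line 17_10 against 1721, 1825 and 1877 in the control, and the remaining one had 152, 70.5 and 138 against 355, 359 and 476. In both, replicate 2 was again the lowest line 17_10 library. The last 2 lower features were near silent in line 17_10 and low in the control, at means of 2.41 and 1.68 in line 17_10 against 20.0 and 17.1 in the control.

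The largest rise was MLOC_54756. It had 185, 186 and 102 normalized counts in replicates 1 to 3 of line 17_10, which rest on 83, 272 and 71 reads, against 0 reads in every control library. The groups were fully separate, and the transcript was at least 52.6-fold higher in line 17_10 at a floor of 3 reads per library (adjusted p = 7.66e-09 by limma). Its level in line 17_10 was 158 ± 48.4 at stage 59 and 441 ± 24.1 at stage 49 (SD, n = 3 each), and the control had 0 reads at stage 49 as well. The stage dependence of its difference from the control did not pass the test of interaction (limma adjusted p = 1). In line 5.8 at stage 59 it had 118, 100 and 153, and the difference between the lines had an interval from -0.44 to 1.08 on the log2 scale (95%, limma), which includes 0.

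Among features present in both groups the largest rise was MLOC_43997. It had 956, 1014 and 945 normalized counts in line 17_10, against 74.6, 69 and 274 in the control. The line 17_10 libraries were close together, and control replicate 3 stood nearly 4 times above the other control libraries. The mean was 972 ± 36.7 in line 17_10 and 139 ± 117 in the control (SD, n = 3 each; a log2 change of 3.10 with SE 0.56 by limma, adjusted p = 0.031). At stage 49 MLOC_43997 had 658, 775 and 828 in line 17_10, against 26.4, 123 and 161 in the control (a log2 change of 3.20 with SE 0.56 by limma, adjusted p = 0.0247). In line 5.8 at stage 59 it lay between the other groups, at 343, 337 and 401, and the difference between the lines did not pass (limma adjusted p = 0.397, interval 0.24 to 2.62 on the log2 scale before adjustment over features). The call against the control is near the threshold and was lost in 16 of 31 alternatives, with adjusted p up to 0.684 by limma with a minimum change of 2-fold, by edgeR (0.0881) and without replicate 1 or 2 of the control (limma, 0.185 and 0.226).

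The other higher features ranged in level from a mean of 14.9 to 5719 normalized counts in line 17_10. The second largest rise had 891, 804 and 652 in line 17_10 against 4.61, 1.33 and 13.6 in the control. The third had 1101, 992 and 1066 in line 17_10, and in the control 31.5 and 27.9 in replicates 1 and 2 but 0 in replicate 3. The fourth had 668, 300 and 273 in line 17_10 against 7.69, 7.96 and 0 in the control. In these 3 features the control libraries held few normalized counts and differed from each other.

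The most abundant of the higher features was the twelfth in size, with 4580, 4966 and 7611 in line 17_10 against 1086, 1812 and 482 in the control. At stage 49 its means were 933 in line 17_10 and 980 in the control (log2 fold change -0.01). The smallest change called was 0.59 on the log2 scale, in a feature with 3307, 3631 and 3969 in line 17_10 against 2210, 2646 and 2369 in the control. Its groups did not overlap, and the lowest line 17_10 library stood above the highest control library.

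In contrast to the falls, most rises had a counterpart in line 5.8. At stage 59, 16 of the 20 higher features had a line 5.8 mean at least 2-fold above the control mean, and 13 had one within 2-fold of line 17_10. For the 19 lower features, 18 had a line 5.8 level within 2-fold of the control on the log2(value + 1) scale, the scale of all counts in this comparison. These are levels set side by side, since both lines are read against the same control libraries. Tested directly, 3 of the 20 higher features were higher in line 17_10 than in line 5.8 (limma, adjusted p below 0.05; 0.0977% of all features were higher), and 2 were lower. The 3 were the fifth, seventh and eighth largest rises. The seventh had 147, 214 and 148 normalized counts in line 17_10 against 3.08, 9.28 and 4.53 in the control, with a line 5.8 mean of 11.2. The eighth had 250.2, 324 and 499.9 in line 17_10 against 22.3, 10.6 and 16.3 in the control, with a line 5.8 mean of 21.6. Of the 19 lower features, 15 were lower in line 17_10 than in line 5.8.

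**Figure D4:**
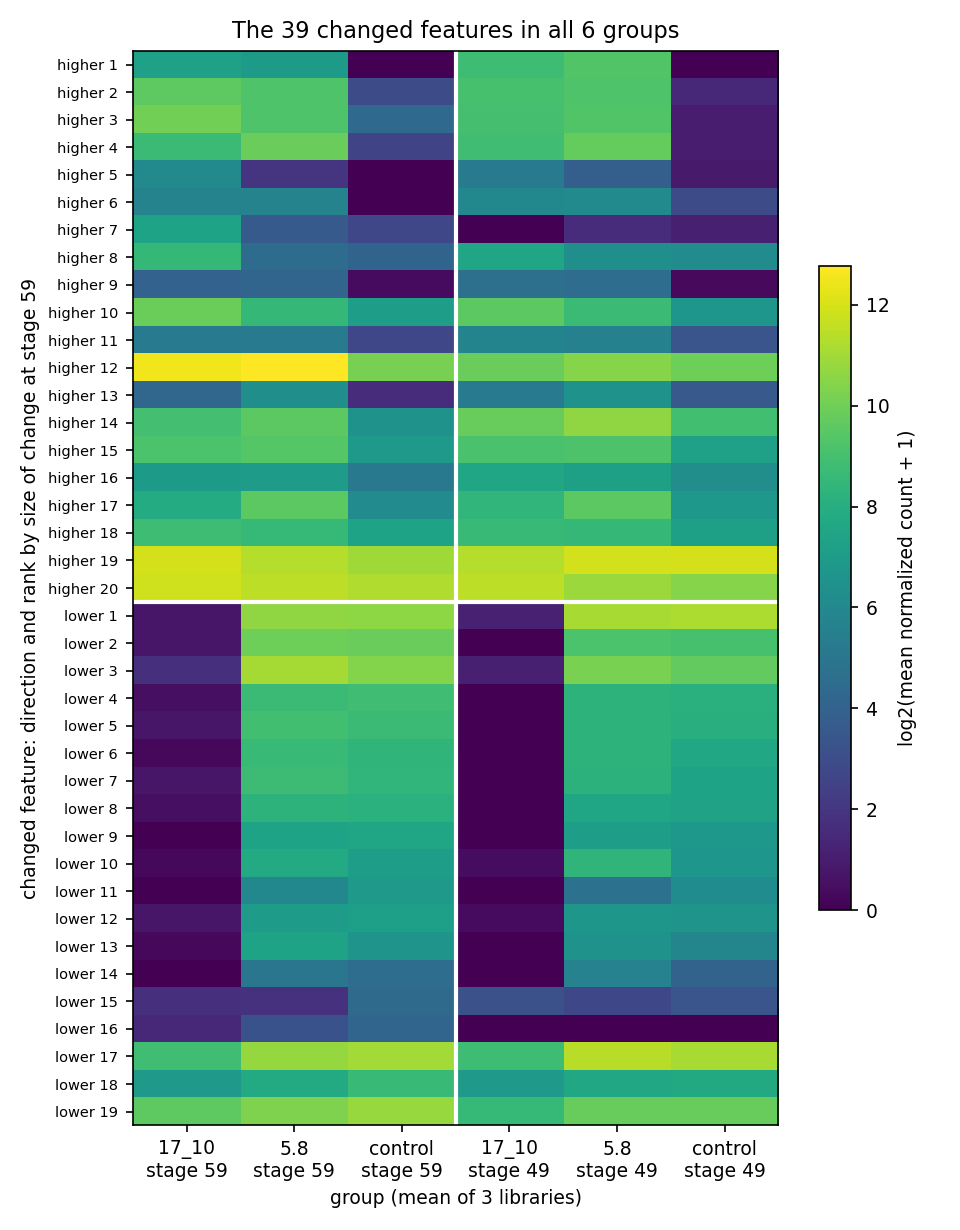
Mean levels of the 39 changed features (rows, by direction and rank in size of change) in the 6 groups (columns), as log2(mean normalized count + 1). The 14 largest falls are dark in line 17_10 alone at both stages, while most of the higher features are brighter in both silenced lines than in the control.

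The stage 49 libraries of the same genotypes share no library with the comparison. Both stages were fitted together and share 1 estimate of spread for each feature, so the calls at stage 49 are not independent of those at stage 59. With the groups alone, 24 features in place of 39 were called at stage 49. Of the 39 features, 35 had the same sign at stage 49, and 29 also passed the test there in the same direction (39 features, 0.201% of those tested, were called at stage 49). Over all features tested, 52.3% had the same sign at both stages. Of the falls, 18 of 19 had the same sign and 16 passed at stage 49 (0.0874% of features tested were called lower there). Of the rises, 17 of 20 had the same sign and 13 passed (0.113% were called higher). The fold change at stage 49 was within 2-fold of that at stage 59 in 10 of the 20 higher features. No such count is given for the lower ones, since in most of them line 17_10 stood near 0 at both stages and the fold followed the control level and the pseudocount. The median log2 fold change at stage 49 was -6.39 for the lower features and 1.87 for the higher ones, against 0 over all features, and -5.87 and 1.87 with the same floor.

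The 7 higher features that did not pass at stage 49 included the seventh and eighth largest rises and the most abundant one. The seventh had 0 reads in line 17_10 and a mean of 1.19 normalized counts in the control at stage 49. Whether a difference itself changed between stages was tested by the interaction of line and stage, in which 0 of 19440 features passed (limma, lowest adjusted p = 0.461). An unadjusted p below 0.05 was reached by 418 features, where 972 are expected by chance, and by 938 in a limma fit of the compared groups alone. The number that passed was 0 by edgeR and 7 by DESeq2. The seventh feature had an interaction of 5.74 on the log2 scale, which did not pass.

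**Figure D5:**
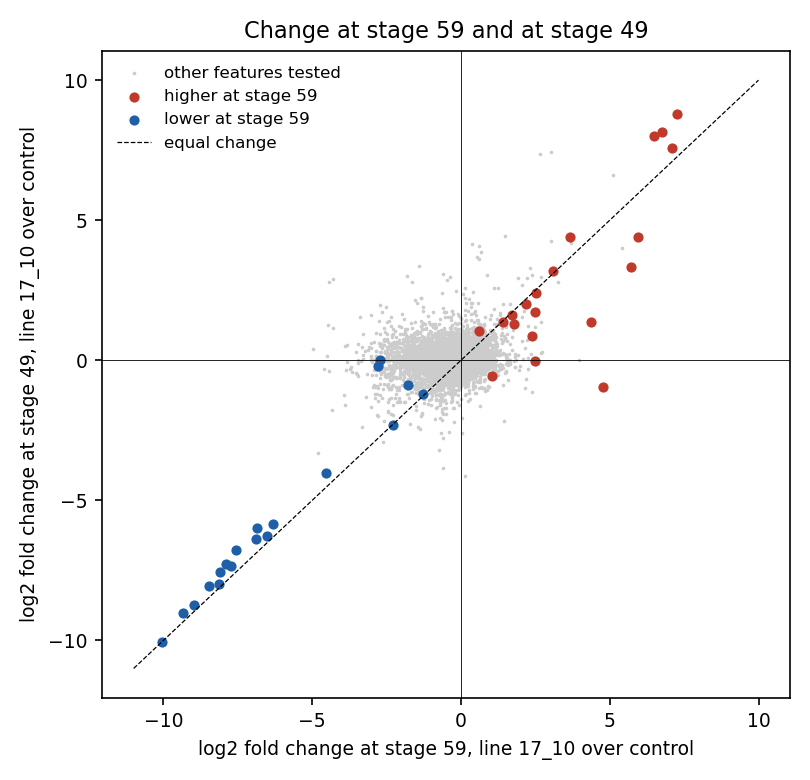
Log2 fold change of line 17_10 over control at stage 59 (x axis) and at stage 49 (y axis) for each feature tested. The dashed line marks equal change. Most of the lower features (blue) lie near it down to -10.04, and in most of them line 17_10 stood near 0 at both stages. The fifteenth and sixteenth largest falls, -2.77 and -2.71 at stage 59, were at -0.20 and 0 at stage 49. The higher features (red) scatter more widely, with 3 of 20 below 0 at stage 49.

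A much larger group of features was lower in line 17_10 without passing the test. At least 4-fold differences were found in 367 features, 47 higher and 320 lower. Of these, 335 were not called, 32 higher and 303 lower. In 231 of the 303, replicate 2 was the lowest library of line 17_10. The 303 were chosen for a low mean that includes this library, so the count partly follows from the choice. No share over all features is given beside it. Without replicate 2 of line 17_10, 156 features were at least 4-fold lower and 74 at least 4-fold higher, and 107 of the 303 stayed at least 4-fold lower. Without replicate 3 of line 17_10, 542 features were at least 4-fold lower. The groups did not overlap in 167 of the 303, against 9.05% of all features on the lower side, but the 303 were chosen for a lower mean and nothing is read from this count. Among features above 5000 normalized counts, 25 were at least 4-fold lower and 0 at least 4-fold higher, with replicate 2 the lowest library of the line in 25 of the 25. These 25 were likewise chosen for a low mean that includes replicate 2. The median standard error of the 335 was 1.08 on the log2 scale, against 0.24 over all features, and these differences did not pass the test.

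For most transcripts the data bound the difference from the control. The 95% interval of the log2 fold change lay within 2-fold in 12790 of 19440 features (65.8%) and within 4-fold in 17047 (87.7%). Precision rose with level. Features with a mean below 50 normalized counts had a median standard error of 0.62 and an interval within 2-fold in 7.24% of cases. Between 500 and 5000 the median standard error was 0.17 and the share 85.1%.

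Because spikes at stage 59 can differ in how far heading has gone, genes that change over heading were read in the 6 libraries. The list was taken from line 5.8 alone (stage 59 against 49, limma adjusted p below 0.05 and at least 4-fold). Its fold changes and tests use none of these libraries, but only features that passed the filter in these 6 libraries could enter. The list holds 1519 rising and 1183 falling features. In line 17_10 against the control, 1 of the rising features passed as higher and 1 as lower, and of the falling ones 1 passed as higher and 0 as lower, where 0.103% of all features passed as higher and 0.0977% as lower. These few calls are near the shares over all features. The median log2 fold change was -0.22 in the rising and -0.19 in the falling list, against -0.01 over all features. Libraries that did not overlap on the lower side were found in 13.2% of the rising and 18.4% of the falling list, against 9.05% of all features. On the higher side they were found in 42 of the 1519 rising and 45 of the 1183 falling features, a smaller share in both than the 8.44% of all features. Both medians were below that of all features. Without replicate 2 of line 17_10 they were -0.09 in the rising and -0.30 in the falling list, and without control replicate 3 they were -0.33 and -0.25.

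The difference between the mean log2 levels of the rising and the falling list served as a position along heading. It was 2.42, 1.39 and 1.95 in replicates 1 to 3 of line 17_10, against 1.83, 2.07 and 1.94 in the control. The group means did not differ beyond their spread, at 1.92 ± 0.52 in line 17_10 and 1.95 ± 0.12 in the control (SD, n = 3 each; two-sided exact permutation test, p = 1, smallest possible 0.1). Within line 17_10 the libraries ran from above to below all control libraries on this index, with replicate 2 at the low end. Replicate 2 had the lowest mean of the 6 libraries on the rising list, at 8.26. On the falling list its mean of 6.87 lay within the control range, 6.84 to 7.22. Replicate 2 was also the library with the most features below its group, and the part of this position in the falls was not tested.

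Features with EPlHVUG identifiers, 1855 in the table and 142 of those tested, took 0.54, 0.535 and 2.2% of the normalized counts in replicates 1 to 3 of line 17_10, against 0.418, 0.359 and 0.451% in the control. Every line 17_10 library was above every control library (two-sided exact permutation test of 3 against 3 libraries, p = 0.1, the smallest possible), and the mean of the line rests mainly on replicate 3. The share varied widely within other groups too. It was 0.207, 1.71 and 1.75% in line 5.8 at stage 59. At stage 49 it was 0.491, 7.46 and 0.366% in line 17_10, against 0.353, 0.797 and 0.37% in the control, where the groups overlapped. Of the 142, 42 had groups that did not overlap on the higher side and 0 on the lower side, against 8.44 and 9.05% of all features. These features are part of the shares above, so their count is no separate support. None of the 142 passed the test by limma, and 4 had an unadjusted p below 0.05. Their median log2 fold change was 0.45.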

How the data were processed

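Libraries of whole spike RNA were made with a kit that keeps strand, per the labels. The authors deposited 1 table of counts normalized by DESeq size factors, per the labels, a signal. Tools named in the submitters' processing notes are STAR 2.4.2a, Subread 1.5.2 and DESeq2. The build, the annotation, the strand setting and the handling of multiply aligned reads are not given in the sources used, so near-identical or overlapping genes may share or lose reads. Dividing each library by its smallest value gave whole reads (100% of values within 0.001 reads), 24459652 to 106034579 per library; edgeR's test on them called 32 features.

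Features with at least 10 normalized counts in 3 of the 6 stage 59 libraries were tested as log2(value + 1), so fold changes understate those of low genes. The limma fit (version 3.58.1 in R 4.3.3) took all 18 libraries, 6 group means and a mean-variance trend, two-sided, with Benjamini-Hochberg adjustment over 19440 features at 0.05. edgeR 4.0.16 and DESeq2 1.42.0 were alternatives on recovered reads. The code was tested on simulated data. The series description calls the replicates biological; no source says how many plants each holds. No library was a copy of another (chi-square per feature at least 55.6 within the 6 libraries). Named features were the largest rise and fall among called features with non-overlapping libraries and a mean of at least 50 in the higher group, and the same among those with at least 50 in both groups. Members, lists, tests and most alternatives were chosen with earlier results of these data known. The 14 largest falls, the matching 7 rises, the features given by rank and the counts of 4-fold differences were chosen after values were seen.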

Additional observations from a re-analysis of the deposited data

Results flagged for a closer look

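2 of the named features differed between the silenced lines, that is, the line 17_10 libraries differed from those of line 5.8 at stage 59 in a direct test. MLOC_312 was lower in line 17_10 than in line 5.8 by limma (log2 fold change -10.1, adjusted p = 2.49e-10), with 0, 3 and 0 reads in the libraries of line 17_10 against 2590, 863 and 1190 in those of line 5.8. MLOC_67381 was also lower in line 17_10 (log2 fold change -1.98, limma adjusted p = 0.0298), in 3 of 3 libraries.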

How the results depend on the processing

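For line 17_10 against the control at stage 59, pseudocounts of 0.5 and 5, the wider filter over 18 libraries, TMM scaling, edgeR, no trend and the 6 libraries alone gave 27 to 50 features, within 1.5 times of 39. The share of higher features, 51.3%, was 36.5% without a filter (63 features), 40.1% with array weights (147, estimated gene by gene, since the default estimate did not converge), 37% with the 6 libraries alone (27) and 33.3% with a minimum log2 change of 1 (21). DESeq2 gave 115. Leaving out 1 library gave 27 to 64. For line 17_10 against the control at stage 49 the counts were 24 with the groups alone, 75 by DESeq2, 369 with array weights, 20 with the minimum change and 25 to 40 without 1 library, against 39. Against line 5.8 they were 32, 217, 3468, 28 and 38 to 1348, against 53; the highest came without replicate 1 of line 5.8. The interaction gave 1 feature without a filter, 7 by DESeq2, 8 with array weights and 0 to 1 without 1 library. The causes were not tested.

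Deviations of same-numbered libraries of line 17_10 and control at stage 59 correlated at -0.16, -0.21 and 0.24. Differently numbered libraries were not compared in this way, so whether replicate numbers pair the libraries was not tested. In log2 values, replicate 3 of line 17_10 correlated at 0.978 with control replicate 3. With replicates 1 and 2 of its own line it correlated at 0.976 and 0.951. With a replicate block within stage the count was 27 of 39, and with the block in the compared groups alone it was 0 at stage 59 (1555 with unadjusted p below 0.05 by limma), 7 at stage 49 and 15 against line 5.8. Among the named features, MLOC_312 and MLOC_54756 lost the call in 1 of 31 alternatives, that block (limma adjusted p = 0.0868 and 0.0968), MLOC_67381 in 5 and MLOC_43997 in 16, with no change of direction. The heading position differed by -0.03 between the groups and by -0.28 to 0.24 without 1 library. With all libraries its SD was 0.52 in line 17_10 and 0.12 in the control. Depth limits low features: with 0 reads, up to 3 per library remain possible.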

Other observations

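Below the filter on low values, 14 features had reads in all 3 libraries of line 17_10 and 0 reads in the control at stage 59, and 72 had reads in all 3 control libraries and 0 in line 17_10. The 100 most abundant features took 16.5, 16.8 and 16.4% of the normalized counts in line 17_10, against 15.9, 16.3 and 14.3% in the control (two-sided exact permutation test, p = 0.1, the smallest possible). In line 17_10, 18874 to 19138 features had at least 10 normalized counts, against 19097 to 19837 in the control (two-sided exact permutation test, p = 0.2). Of 7 library measures compared in this way, 0 had an unadjusted p below 0.1, which 3 against 3 libraries cannot reach.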
